A study of Mus musculus with 219 samples.

Results

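The 10 genes described here encode transcription factors that nerve cells switch on within minutes of synaptic activity, and they were followed in the left prefrontal cortex of mice across the day, between 2 light cycles and between 4 genotypes. They were taken by symbol from a list of FOS, EGR and NPAS4 activity-induced factors: Fos, Fosb, Fosl2, Junb, Egr1, Egr2, Egr3, Egr4, Npas4 and Ier2. The list was chosen with earlier results of these data known. All 10 were found among the 55487 gene identifiers of each deposited count table, and all 10 passed the filter on low counts, which left 17193 genes in the atlas and 18841 genes at ZT6. Zeitgeber time (ZT) is given in hours after lights on, or as labelled for mice collected in constant darkness.

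Total RNA depleted of ribosomal RNA was sequenced from 1 piece of left prefrontal cortex per mouse. A time-of-day atlas came from 92 mice of about 12 weeks, all WT/WT (Snord116+/+Ctg-/-), kept in home cages on days of 12 h light and 12 h dark. They were collected in that cycle at 8 times, every 3 h from ZT0 to ZT21, as 6 males and 6 females per time and 5 of each at ZT18 and ZT21. The other 126 mice were all collected at ZT6. From about 8 weeks of age they lived in light-controlled incubators at 22 °C, first for 7 days of acclimation and then for 22 days on either 11 h of light and 11 h of dark (11:11) or 12 h of each (12:12).

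These ZT6 mice formed 2 sets. In the calorimetry set (63 mice) the animals went into indirect calorimetry chambers after the 22 days and were collected in constant darkness. In the running wheel set (63 mice) the animals had a wheel for the last 7 of the 22 days and were collected in the light cycle. Each set held males and females of 4 genotypes: HET/WT (Snord116+/-Ctg-/-), with 1 deleted copy of the Snord116 small nucleolar RNA cluster; WT/TG (Snord116+/+Ctg+/-), with a transgene that the labels write Ctg and do not describe further; HET/TG (Snord116+/-Ctg+/-), with both; and WT/WT, with neither. A group is defined by set, light cycle, sex and genotype and held 4 mice. Only WT/TG males were fewer, with 3 on 11:11 in calorimetry and 3 on 12:12 with wheels, where 1 labelled sample was not analysed here. Set, housing before collection and lighting at collection changed together and cannot be told apart, and the labels do not say from which parent the deleted copy came. On 11:11, ZT6 is a different part of the cycle than on 12:12, and a difference in phase was not tested.

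Immediate early genes need no new protein for their own transcription: calcium entry and MAP kinase signalling act on factors already bound at their promoters, chiefly CREB at cAMP response elements and SRF with its ELK partners at CArG boxes. FOS, FOSB and FOSL2 pair with JUN proteins such as JUNB to form AP-1, a dimer that binds the enhancers of slower genes. EGR1 to EGR4 are zinc finger factors that bind GC-rich sites, and the NAB corepressors hold EGR1, EGR2 and EGR3 in check. NPAS4 is a basic helix-loop-helix PAS factor that pairs with ARNT proteins and is switched on by calcium entry. IER2 is a small nuclear protein of the same early response. In cortex these transcripts are widely used as markers of recently active neurons, and they decay quickly once activity stops.

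The upstream sequence of 4 members is shown because it holds the cAMP response element half-site, a kind of element through which activity is known to reach such genes. In these 4 the window also does not overlap an annotated exon of the gene. RefSeq (GRCm38.p6) gave an entry for 7 of the 10 members, with 11 start sites in all; Egr1, Egr3 and Ier2 had none in the table used. Each line runs 5′ to 3′ on the strand of the gene over the 250 bases before the annotated start. Capitals mark the cAMP response element half-site (TGACG, or CGTCA on the other strand), the TATA box (TATAAA, or TTTATA on the other strand) and the CArG box (CC, then 6 letters that are each A or T, then GG).
Fos (chr12:85473640-85473889, plus strand): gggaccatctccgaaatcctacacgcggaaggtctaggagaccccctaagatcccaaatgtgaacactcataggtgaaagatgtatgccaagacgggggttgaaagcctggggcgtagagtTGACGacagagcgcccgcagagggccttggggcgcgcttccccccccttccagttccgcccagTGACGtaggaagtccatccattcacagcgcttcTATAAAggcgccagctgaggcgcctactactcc
Junb (chr8:84978749-84978998, minus strand): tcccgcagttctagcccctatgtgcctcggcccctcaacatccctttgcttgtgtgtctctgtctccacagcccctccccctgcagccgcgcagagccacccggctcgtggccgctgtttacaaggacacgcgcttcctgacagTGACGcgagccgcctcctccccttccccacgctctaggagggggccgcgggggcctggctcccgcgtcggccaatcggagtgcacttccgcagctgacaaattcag
Egr2 (chr10:67537619-67537868, plus strand): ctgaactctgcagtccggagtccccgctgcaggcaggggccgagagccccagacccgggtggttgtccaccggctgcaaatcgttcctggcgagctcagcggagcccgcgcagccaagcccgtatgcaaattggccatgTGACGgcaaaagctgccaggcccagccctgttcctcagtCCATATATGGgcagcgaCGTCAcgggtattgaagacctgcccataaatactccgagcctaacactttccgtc
Egr4 (chr6:85513590-85513839, minus strand): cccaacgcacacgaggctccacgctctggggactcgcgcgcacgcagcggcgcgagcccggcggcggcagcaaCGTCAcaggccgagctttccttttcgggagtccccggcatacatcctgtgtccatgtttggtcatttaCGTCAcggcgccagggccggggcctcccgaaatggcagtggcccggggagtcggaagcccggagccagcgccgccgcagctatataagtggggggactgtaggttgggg

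The half-site lay in at least 1 window of 6 of the 7 members with an entry, all but Fosl2, and in 8 of their 11 windows. It was present in 17.8% of the 32851 windows of the same length in the RefSeq table. That share is per window and not per member, and overlapping windows of Egr2 that hold the same half-sites are each counted in the 8 of 11. In the sequences printed above it starts 129 and 66 bases before the start of Fos, 106 before that of Junb, 111 and 55 before that of Egr2, and 177 and 109 before that of Egr4. The CArG box was found in 1 of the 7 members, Egr2, in 4 of its 5 windows, against 1.47% of all windows. It starts 72 bases before the start in the window shown. That window overlaps those from 67537620 and 67537680, which hold the same CCATATATGG, so these are not separate boxes. The TATA box was found in Fos, 33 bases before the start, and 12.4% of all windows held one. These are letter matches in short windows, with no binding measured, and sequence further upstream was not searched.

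Libraries held 12995491 to 18420258 counts in the atlas, 12737699 to 29856536 in calorimetry and 13588458 to 24143548 with wheels, and every member was counted in every library. No pair of libraries within a group (sex and time in the atlas) held identical counts, and libraries of different groups were not compared. The 10 excitatory neuron markers of cortex were all measured and summed to at least 4334 CPM in every library, while choroid plexus markers, which cortex lacks, ran from 3.12 to 2679 CPM. Snhg14, the host transcript of the Snord116 cluster, lay between 20.2 and 69.3 CPM (counts per 1000000) in HET/TG and between 20.8 and 54.3 CPM in HET/WT libraries other than 1, against 139 to 218 CPM in WT/TG and 116 to 281 CPM in WT/WT. The exception, a wheel female on 11:11 labelled as HET/WT (replicate 3), had 167 CPM, and counts that rest on it are given with and without it where they differ. The slope of a library's log2 CPM on gene length is a sign of how whole the RNA was or how the library was made. At ZT6 it averaged -0.07 in calorimetry and 0.07 in wheel mice, and it averaged -0.07 in males and 0.07 in females. By set and sex it averaged -0.16 in calorimetry males, 0.02 in calorimetry females, 0.02 in wheel males and 0.11 in wheel females. Calorimetry males did not overlap the others.

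Per kilobase of exon, the levels of the members spanned a wide range. In the atlas Egr1 averaged 56.5 CPM per kb and Egr3 32.99, followed by Junb at 15.5, Egr4 at 11.2, Fos at 6.77, Fosl2 at 4.85, Ier2 at 4.31 and Npas4 at 3.28. Fosb at 1.54 and Egr2 at 1.26 CPM per kb were the lowest. On GRCm38 the genes lie apart from each other: Fos (ENSMUSG00000021250) at chr12:85473890-85477273 on the plus strand, Fosb (ENSMUSG00000003545) at chr7:19302696-19310051 on the minus strand, Fosl2 (ENSMUSG00000029135) at chr5:32135801-32157842 on the plus strand, Junb (ENSMUSG00000052837) at chr8:84974484-84978718 and Ier2 (ENSMUSG00000053560) at chr8:84661331-84662852 on the minus strand. Egr2 (ENSMUSG00000037868) lies at chr10:67535475-67542188 and Egr3 (ENSMUSG00000033730) at chr14:70077203-70082614, both on the plus strand, and Egr4 (ENSMUSG00000071341) at chr6:85511121-85513589 and Npas4 (ENSMUSG00000045903) at chr19:4984355-4990316, both on the minus strand. Junb overlaps Prdx2 on the other strand, and the strand setting of the authors' counting is not given in the sources used here, so reads of these genes may be shared.

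Across the day in WT/WT mice, all 10 members changed with time, and 6 of them had their lowest median at ZT6, in the middle of the light phase. All but Fosl2 had their highest median in the dark phase or at ZT0. A joint test of the 8 times (edgeR quasi-likelihood test, Benjamini-Hochberg adjustment over all genes) called all 10, with adjusted p between 4.26e-10 and 2.18e-06, where 33.9% of all genes were called. A 24 h cosine was called in 9 of 10, where 41.4% of all genes were called, and Ier2 was the exception (adjusted p = 0.107). The fitted difference between the highest and lowest point of the day reached 3.00-fold in Egr2, 2.53-fold in Fos and 2.18-fold in Egr1, and was 1.32-fold in Ier2.

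**Figure D1:**
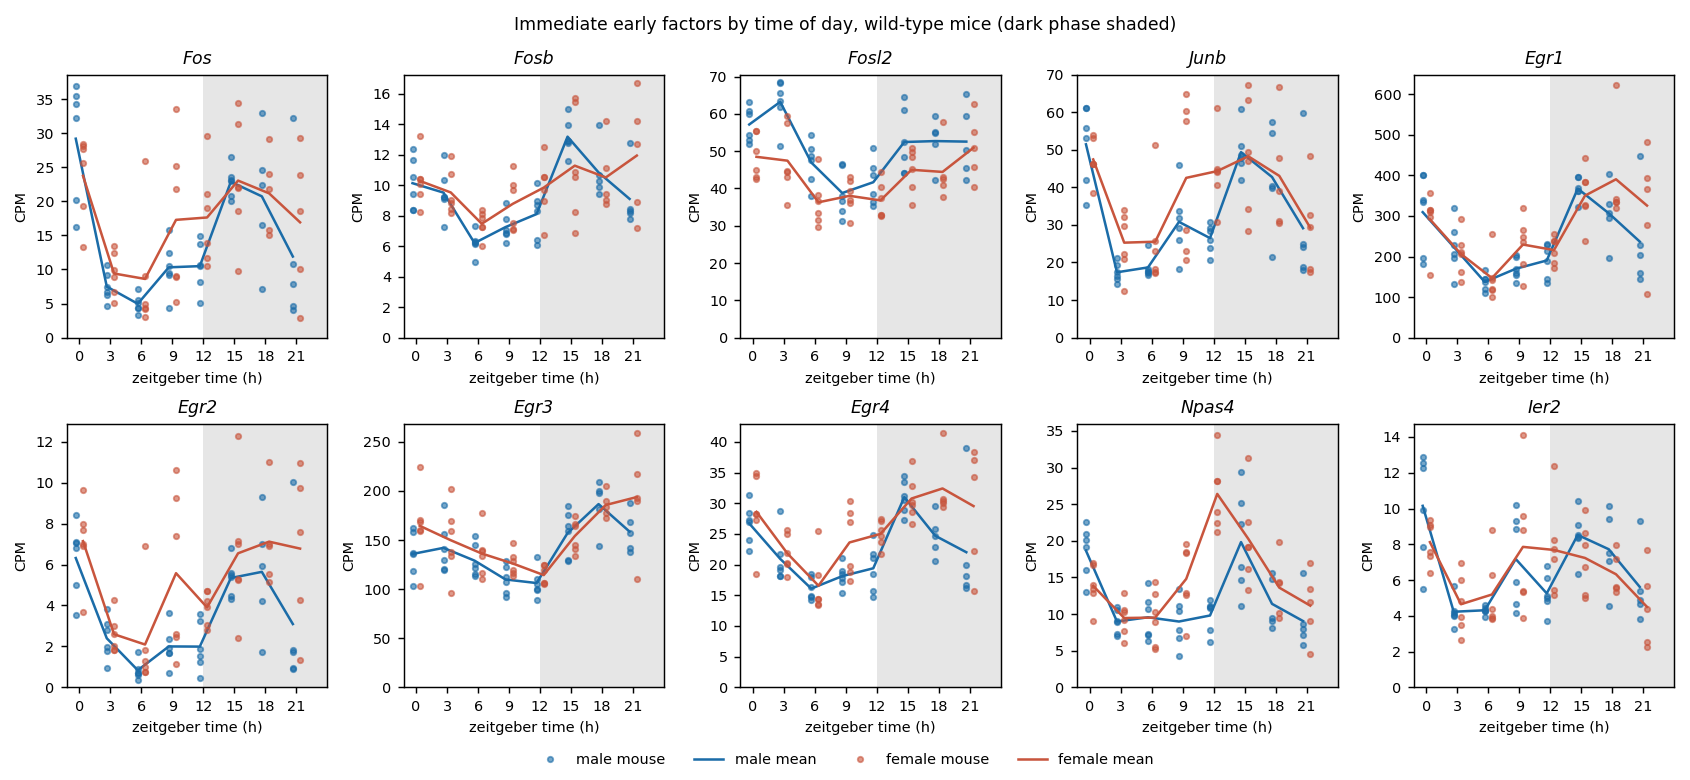
Each panel plots one member in WT/WT atlas mice, with zeitgeber time in hours on the x axis and CPM on the y axis; points are mice, lines join the means of males and females, and the dark phase is shaded. Most panels have their lowest values at ZT6, where the median of Fos is 4.69 CPM and that of Egr1 139 CPM, and Npas4 in females stands highest at ZT12.

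Among the AP-1 members, Fos had medians of 27.9 CPM at ZT0, 8.19 at ZT3, 4.69 at ZT6, 10.0 at ZT9, 12.7 at ZT12, 22.6 at ZT15, 22.1 at ZT18 and 10.4 at ZT21. Its 12 mice at ZT6 ran from 3.07 to 25.9 CPM and its 12 mice at ZT0 from 13.3 to 36.9, and the ranges overlapped. Junb, the JUN partner in this group, followed the same course, with medians of 49.7, 20.2, 18.01, 30.5, 30.8, 48.1, 40.1 and 24.5 CPM at the 8 times in order. Relative to ZT0, Fos at ZT6 fell by 2.01 ± 0.30 on the log2 scale (SE, adjusted p = 8.71e-07), and Junb fell by 1.18 ± 0.19.

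Fosb and Fosl2 moved less. Fosb, whose spliced form ΔFOSB is known to build up with repeated activity, had medians of 10.2, 9.15, 6.78, 7.33, 8.99, 12.8, 10.1 and 8.71 CPM from ZT0 to ZT21. Its range was 6.89 to 15.8 CPM at ZT15 and 4.94 to 8.37 CPM at ZT6, and the fitted swing was 1.52-fold. Fosl2 stood out by its timing: its medians were 53.6, 58.5, 40.4, 37.5, 38.01, 48.5, 47.4 and 50.6 CPM, highest at ZT3, when Fos and Junb were near their lowest. The top at ZT3 came from males, with a median of 64.6 CPM. In females the Fosl2 median was 44.6 CPM at ZT3 and highest at ZT21, at 50.9 CPM. Over both sexes, Fosl2 at ZT3 was not separated from ZT0 (edgeR, adjusted p = 0.855).

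Of the EGR factors, Egr1 had medians of 315 CPM at ZT0, 209 at ZT3, 139 at ZT6, 190.4 at ZT9, 211 at ZT12, 365 at ZT15, 332 at ZT18 and 253 at ZT21. The 12 mice at ZT15 lay between 239 and 442 CPM and those at ZT6 between 100.5 and 255, with a small overlap. Egr2 had the deepest trough, with medians of 7.02, 2.33, 0.832, 2.41, 3.15, 5.43, 6.41 and 3.04 CPM. One mouse at ZT6 had 6.92 CPM of Egr2, and the lowest had 0.38.

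Egr4 resembled Egr1, with medians of 27.8, 20.2, 14.8, 18.8, 22.6, 30.4, 29.4 and 21.1 CPM, and here the 12 mice at ZT15 (26.6 to 36.8 CPM) all lay above the 12 at ZT6 (13.4 to 25.4 CPM). Egr3, known as a target of calcineurin signalling in T cells, went its own way: its medians were 159, 139, 129, 118, 107, 162, 186 and 178 CPM, highest at ZT18 (144 to 209.6 CPM) and lowest at ZT12 (89.4 to 133 CPM), with no overlap between these times. Npas4 had medians of 16.3, 9.14, 9.59, 11.9, 16.5, 19.1, 12.2 and 8.89 CPM, and at ZT12 its mice spread from 6.23 to 34.4 CPM. Ier2 had medians of 9.02, 4.09, 4.30, 7.37, 5.78, 8.38, 7.11 and 4.77 CPM, with its lowest times at ZT3 and ZT6.

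The fitted 24 h peaks of the 9 called members fell within the dark phase. Npas4 came earliest at 15.5 ± 0.89 h, followed by Junb at 17.2 ± 0.74 h. Fos at 18.5 ± 0.65 h, Egr4 at 18.5 ± 0.48 h, Fosb at 18.7 ± 0.56 h, Egr1 at 18.7 ± 0.44 h and Egr2 at 18.99 ± 0.61 h were within their errors of each other. Egr3 at 20.6 ± 0.47 h and Fosl2 at 22.3 ± 0.53 h came last, with fitted swings of 1.53-fold and 1.39-fold. The fitted swing was 1.78-fold for Junb, 1.67-fold for Npas4 and 1.64-fold for Egr4.

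The cosine leaves out part of the course, since ZT0 was as high as ZT15 for several members. With 12 h waves added, a comparison chosen after seeing the data, all 10 members were called (38.1% of all genes), and the 12 h part by itself was called in Npas4 (adjusted p = 0.0108) and Egr3 (adjusted p = 0.0197), where 1.91% of all genes were called. Without replicates 1, 2, 4 or 6 the 12 h part was called in 1 member. The shape of the day was not found to differ between the sexes: 0 of 10 members were called for rhythm by sex (edgeR, 0.0756% of all genes; 0 by DESeq2), and 1 had an unadjusted p under 0.05, as had 7.76% of all genes.

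Between times, 118 of 280 differences of a member between a pair of times were called, against 7.45% of all such differences over all genes, from 10 of 28 pairs in Fos, Junb and Npas4 to 14 of 28 in Fosl2. ZT6 was lower than ZT0 in 9 of 10 members, where 3.73% of all genes were lower: besides Fos and Junb, Egr2 by 2.33 ± 0.35, Egr1 by 1.08 ± 0.17, Ier2 by 0.94 ± 0.18, Egr4 by 0.76 ± 0.12, Npas4 by 0.75 ± 0.18, Fosb by 0.58 ± 0.11 and Fosl2 by 0.35 ± 0.09 on the log2 scale. Egr3 did not pass (-0.17 ± 0.10, adjusted p = 0.354). ZT15 was higher than ZT6 in 9 of 10 members (9.34% of all genes were higher), with log2 differences of 2.15 ± 0.36 in Egr2, 1.81 ± 0.30 in Fos, 1.34 ± 0.17 in Egr1 and 1.07 ± 0.18 in Npas4.

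By ZT3 a lower level had already been called in 5 members, where 1.62% of all genes were lower at ZT3 than at ZT0. Fos was 1.65 ± 0.29 lower, Egr2 1.43 ± 0.32, Junb 1.24 ± 0.19, Ier2 1.04 ± 0.18 and Npas4 0.80 ± 0.18 lower on the log2 scale, whereas Fosl2 (0.06 ± 0.08), Egr3 (-0.04 ± 0.10) and Fosb (-0.10 ± 0.11) had intervals that include 0. ZT15 and ZT0 did not separate: 0 of 10 members were called (edgeR, 7.61% of all genes; 0 by DESeq2), and 1 had an unadjusted p under 0.05 (22.2% of all genes). For ZT9 against ZT6, 0 were called by edgeR (0.244% of all genes) and 2 by DESeq2, with 6 at an unadjusted p under 0.05 (9.18% of all genes). The median over the members there was 0.41 on the log2 scale, with 8 differences positive and 2 negative.

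Ordered by median level from high to low, Fos ran ZT0, ZT15, ZT18, ZT12, ZT21, ZT9, ZT3, ZT6, and Egr1 ran ZT15, ZT18, ZT0, ZT21, ZT12, ZT3, ZT9, ZT6. Egr2 began with ZT0, ZT18 and ZT15, Junb and Ier2 with ZT0 and ZT15, Fosb with ZT15 and ZT0, Egr4 with ZT15 and ZT18, Npas4 with ZT15 and ZT12, Egr3 with ZT18 and ZT21, and Fosl2 with ZT3 and ZT0. Neighbours in these orders seldom differed beyond their spread: 2 of 70 neighbouring pairs were called, Fosb at ZT21 over ZT9 (0.38 ± 0.12, adjusted p = 0.0215) and Egr2 at ZT15 over ZT12 (1.08 ± 0.32, adjusted p = 0.0231). In bulk tissue, fewer cells of a type and less RNA per cell cannot be told apart.

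Mice of the same sex and time differed widely in these genes. The within-group SD on the log2 scale was 0.80 for Egr2, 0.73 for Fos and 0.21 for Fosl2, against a median of 0.17 over all genes, and each member lay between the 93.4th and 99.8th percentile of the 500 genes of most similar level. The members moved together from mouse to mouse: within groups all 45 pairs of members had a positive Pearson r, with a median of 0.62, and the highest was 0.90 between Fos and Egr2. These correlations are descriptions over 92 libraries that share depth and tissue piece.

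The genes outside the list whose levels over the 92 atlas libraries were most like the mean of the members were Arc (r = 0.93), Midn (0.91), Dusp6 (0.91), Nr4a1 (0.91) and Sik1 (0.89). The gene nearest to each member was Nr4a1 for Fos (0.95), Dusp1 for Junb (0.94), Homer1 for Egr3 (0.92) and Midn for Egr1 (0.92). Sik1 was nearest to Egr2 (0.91), Dusp1 to Ier2 (0.89) and to Npas4 (0.67), Midn to Egr4 (0.88) and to Fosb (0.76), and Nr4a3 to Fosl2 (0.83). Npas4 thus had the loosest match.

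Other genes of the pathway were counted in the same way. Among the factors that act upstream, 10 of 16 were called for the 24 h rhythm, where 41.4% of all genes were called, with small swings in Srf (0.23 between high and low on the log2 scale, peak at 20.8 h), Mef2d (0.13, peak at 18.1 h) and Mef2c (0.27, peak at 12.6 h). Of the other AP-1 and partner proteins 4 of 7 were called, and Jun, the classic partner of FOS, swung by 0.52 with a peak at 1.5 h. Of the EGR corepressors Nab2 was called (0.49, peak at 19.1 h), 1 of 2. Of the other immediate early genes 21 of 28 were called, among them Arc (1.79, peak at 19.2 h), Dusp6 (0.69, peak at 18.7 h) and Homer1 (0.62, peak at 20.3 h), and of the late response genes 8 of 12, among them Bdnf (0.44, peak at 22.1 h), Pcsk1 (0.41, peak at 18.9 h) and Vgf (0.34, peak at 20.2 h).

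Male and female atlas mice differed in 7 of 10 members, against 41.5% of all genes, so that share is to be read against a high background. Averaged over times, 6 members were lower in males, where 20.3% of all genes were: Egr2 by 0.73 ± 0.17 on the log2 scale (edgeR, adjusted p = 0.000333), Fos by 0.36 ± 0.15 (0.0417), Npas4 by 0.30 ± 0.09 (0.00747), Junb by 0.26 ± 0.10 (0.0243), Egr4 by 0.22 ± 0.06 (0.00192) and Egr3 by 0.12 ± 0.05 (0.0393). Fosl2 was higher in males, by 0.22 ± 0.04 (3.13e-05), as were 21.2% of all genes. Egr2 had a lowest, median and highest value of 0.38, 2.58 and 10.0 CPM in 46 males, and of 0.734, 4.70 and 12.3 CPM in 46 females, and the groups overlapped.

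Striatal neuron markers moved with sex in the same mice. All 9 markers on the list, among them the dopamine receptor genes Drd1 and Drd2 and the neuropeptide genes Penk and Tac1, were called lower in males, and their summed level was 119 to 525 CPM (median 172) in males and 151 to 1596 CPM (median 609.6) in females. Of the blood markers, 7 of 7 tested were higher in males. The part of either in the sex differences was not tested. With the gene-length slope as a covariate 3 members were called in place of 7, and without replicates 1, 2 or 5 the counts were 4, 3 and 4. Throughout, the share of all genes called with that covariate or without a replicate number is not given.

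At single times, a comparison chosen after seeing the data, 3 of 80 sex differences were called, against 3.53% over all genes, so that share is close to the background. The clearest was Npas4 at ZT12, the time of lights off: it had a lowest, median and highest value of 6.23, 10.9 and 11.9 CPM in 6 males, and of 21.2, 26.1 and 34.4 CPM in 6 females, with no overlap. The log2 difference was -1.44 ± 0.25 (edgeR, adjusted p = 0.000246), where 0.681% of all genes were lower in males. Fosl2 was higher in males at ZT3, with 51.3, 64.6 and 68.6 CPM in males and 35.5, 44.6 and 59.5 CPM in females (difference 0.41, adjusted p = 0.0200, 3.68% of all genes higher), and at ZT6, with 37.9, 48.2 and 54.4 CPM in males and 29.6, 35.1 and 48.0 CPM in females (0.37, adjusted p = 0.0486, 3.06% of all genes higher). Of the 80 differences, 7 were called without replicate 3 and 1 without replicate 4 or 6.

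**Figure D2:**
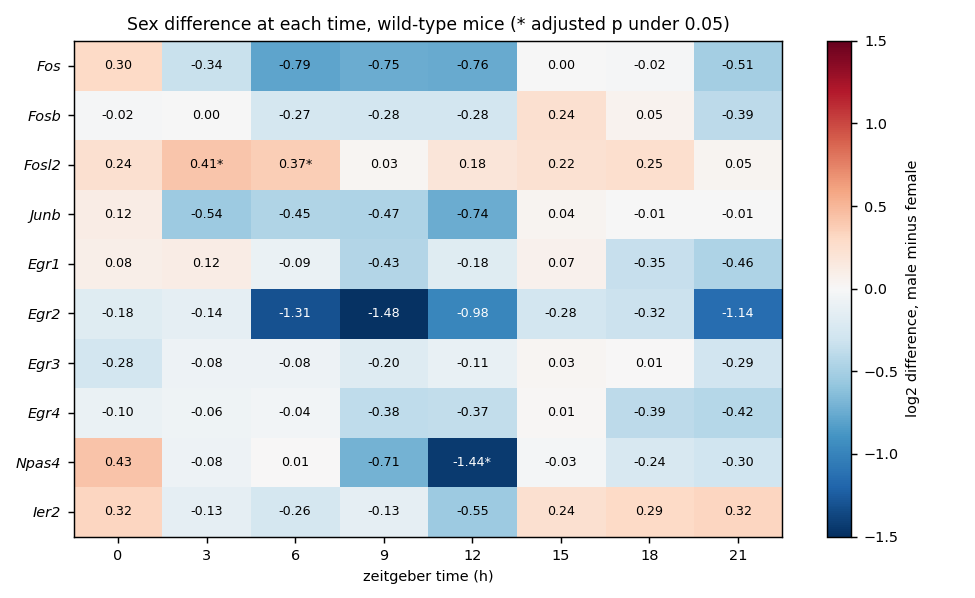
The grid gives the log2 difference, male minus female, of each member (vertical axis) at each zeitgeber time in hours (horizontal axis) in the atlas; asterisks mark an adjusted p under 0.05. The 3 marked cells are Npas4 at ZT12 (-1.44) and Fosl2 at ZT3 (0.41) and ZT6 (0.37), and the Egr2 cell at ZT9 (-1.48) has an adjusted p of 0.0527.

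At ZT6, mice entrained to 11:11 had higher levels of these genes than mice on 12:12 in calorimetry, and no member was called with running wheels. Over both sets 2 of 10 members were called, both higher on 11:11, as were 7.49% of all genes: Egr1 by 0.33 ± 0.07 (edgeR, adjusted p = 0.000168) and Fos by 0.27 ± 0.09 (0.0260). In calorimetry 8 of 10 were called, all higher, where 19.6% of all genes were called and 10.4% were called higher. The median over the 10 members there was 0.30 on the log2 scale, against -0.005 over all genes tested. Without replicate 4 the count in calorimetry was 5, and over both sets it was 1 without replicate 1 or 3.

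**Figure D3:**
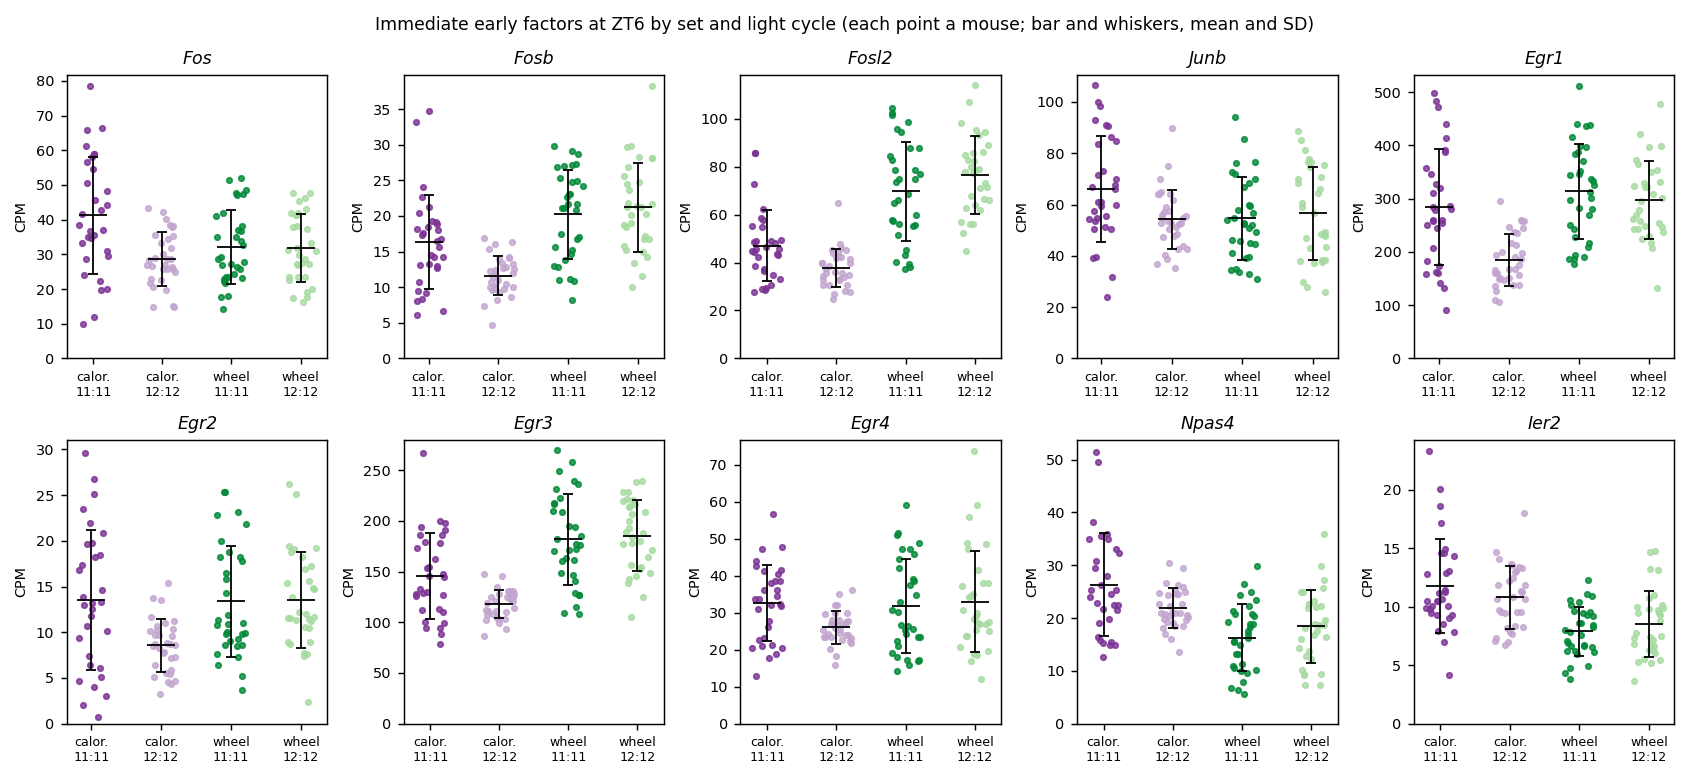
Each panel plots one member at ZT6 in CPM (y axis) for mice of calorimetry on 11:11, calorimetry on 12:12, running wheel on 11:11 and running wheel on 12:12 (x axis); points are mice, and the bar and whiskers are the mean and SD. In calorimetry Egr1 has a median of 279 CPM on 11:11 and 172 CPM on 12:12, and with wheels 319 and 295 CPM.

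Egr1 in calorimetry had a lowest, median and highest value of 91.0, 279 and 499 CPM in 31 mice on 11:11, and of 106, 172 and 296 CPM in 32 mice on 12:12. The ranges overlapped, and the mice on 11:11 reached both lower and higher. The log2 difference was 0.58 ± 0.09 (adjusted p = 1.05e-06). With wheels Egr1 had 177, 319 and 512 CPM in 32 mice on 11:11 and 132, 295 and 477 CPM in 31 mice on 12:12, a difference of 0.08 with a 95% interval of -0.10 to 0.26.

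Fos in calorimetry had 9.80, 38.5 and 78.4 CPM on 11:11 and 14.7, 27.7 and 43.3 CPM on 12:12, a log2 difference of 0.53 ± 0.12 (adjusted p = 0.000695). As with Egr1, the ranges overlapped and the mice on 11:11 reached both lower and higher. With wheels Fos had 14.2, 28.97 and 51.9 CPM on 11:11 and 16.4, 30.9 and 47.7 CPM on 12:12, a difference of 0.01 with an interval of -0.23 to 0.25. Fosb in calorimetry had 6.11, 16.5 and 34.7 CPM on 11:11 and 4.71, 11.7 and 16.9 CPM on 12:12 (0.46 ± 0.11, adjusted p = 0.00108).

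Fosl2 had 27.6, 45.7 and 85.9 CPM on 11:11 and 24.98, 36.7 and 64.9 CPM on 12:12 in calorimetry (0.30 ± 0.09, adjusted p = 0.00900), and Junb 23.96, 61.0 and 107 CPM on 11:11 and 35.3, 53.2 and 89.7 CPM on 12:12 (0.29 ± 0.10, adjusted p = 0.0291). Egr2 had 0.764, 13.2 and 29.6 CPM on 11:11 and 3.21, 8.67 and 15.4 CPM on 12:12 (0.61 ± 0.17, adjusted p = 0.00500). These groups overlapped as well, with the highest mice on 11:11 in each. Egr3 had 79.1, 145 and 267 CPM on 11:11 and 86.8, 121 and 147 CPM on 12:12 (0.28 ± 0.07, adjusted p = 0.00231), and Egr4 12.9, 33.7 and 56.6 CPM on 11:11 and 15.9, 25.7 and 36.2 CPM on 12:12 (0.31 ± 0.09, adjusted p = 0.00621).

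Npas4 and Ier2 did not pass in calorimetry. Npas4 had 12.7, 24.5 and 51.5 CPM on 11:11 and 13.6, 20.9 and 30.5 CPM on 12:12 (0.26 ± 0.12, adjusted p = 0.110), and Ier2 4.18, 10.5 and 23.3 CPM on 11:11 and 6.69, 10.7 and 18.04 CPM on 12:12 (0.14 ± 0.09, adjusted p = 0.314). The spread between mice was also wider on 11:11: the SD was 109 CPM on 11:11 and 48.9 CPM on 12:12 for Egr1, 16.9 and 7.71 CPM for Fos, and 42.4 and 14.1 CPM for Egr3. The difference in spread was not tested.

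With running wheels 0 of 10 members were called (edgeR, 0.069% of all genes; 0 by DESeq2), 0 had an unadjusted p under 0.05 (7.46% of all genes), and their log2 differences lay between -0.16 and 0.08. The difference between the sets was tested directly. It was positive in all 10 members and called in 4, where 5.32% of all genes were called and 2.74% were called with a positive sign: Egr1 at 0.50 ± 0.13 (adjusted p = 0.0113), Fosl2 at 0.44 ± 0.12 (0.0180), Fosb at 0.52 ± 0.15 (0.0301) and Egr3 at 0.32 ± 0.10 (0.0417). Fos (0.52, adjusted p = 0.0601), Egr4 (0.35, 0.0711), Egr2 (0.64, 0.0950), Npas4 (0.41, 0.138), Junb (0.32, 0.192) and Ier2 (0.24, 0.353) did not pass.

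**Figure D4:**
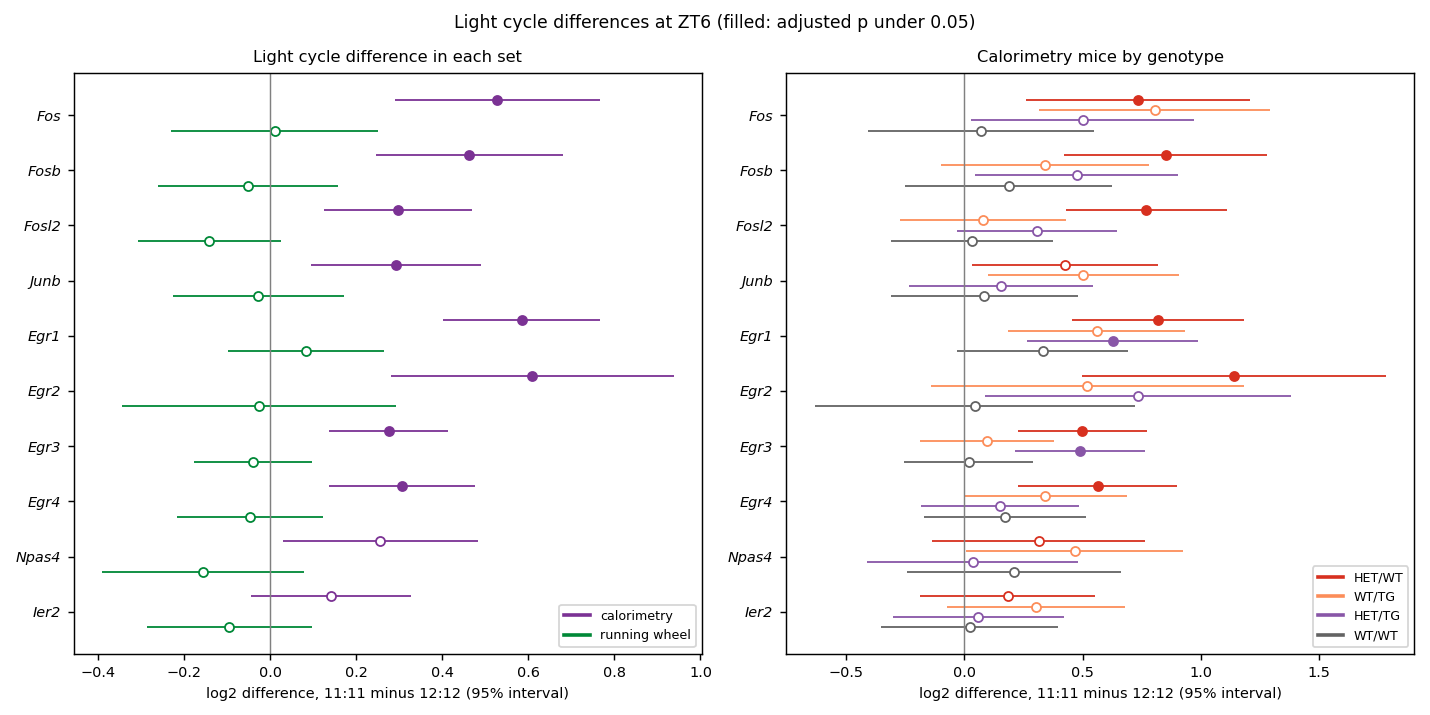
The left panel gives the light cycle difference of each member (11:11 minus 12:12, log2, with its 95% interval) in calorimetry and running wheel mice, and the right panel gives it in calorimetry mice of each genotype; filled points have an adjusted p under 0.05. The left panel has 8 filled points in calorimetry and 0 with wheels, and the right panel has 7 in HET/WT, 0 in WT/TG, 2 in HET/TG and 0 in WT/WT.

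This difference between the sets was sensitive to single replicate numbers: without replicates 2, 3 and 4 the number of members called was 2, 0 and 0, and it was 3 without the library that goes against its genotype label. With the gene-length slope as a covariate it was 0, and the count in calorimetry was 4 in place of 8 (Egr1, Fos, Fosb and Fosl2). The mean slope in calorimetry was -0.05 on 11:11 and -0.08 on 12:12, and it was higher on 11:11 within each sex. In calorimetry females the slope averaged 0.04 (SD 0.02) on 11:11 and 0.001 (SD 0.02) on 12:12. In calorimetry males it averaged -0.14 (SD 0.04) on 11:11 and -0.17 (SD 0.02) on 12:12. Blood markers summed to 44.4 to 281 CPM (median 93.6) on 11:11 and 68.7 to 378 CPM (median 168) on 12:12 in calorimetry, with 4 of 7 called lower. The summed striatal markers had medians of 235 CPM on 11:11 and 290.0 CPM on 12:12, with 1 of 9 called lower, and the part of these in the result was not tested.

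The light cycle difference in calorimetry held the same sign in both sexes. In females 5 of 10 members were called (6.69% of all genes higher): Egr1 at 0.66, Fosb at 0.56, Egr4 at 0.46, Egr3 at 0.41 and Fosl2 at 0.37 on the log2 scale. In males 2 were called (7.18% of all genes higher), Fos at 0.62 and Egr1 at 0.51, and all 10 differences were positive in each sex. No member differed between the sexes in its light cycle difference over both sets (0 of 10 by edgeR, 5.54% of all genes; 0 by DESeq2), and 0 had an unadjusted p under 0.05 (19% of all genes). With wheels 0 were called in females by edgeR (0.276% of all genes) or DESeq2, and 2 had an unadjusted p under 0.05 (10% of all genes). In wheel males 0 were called by edgeR (0% of all genes) or DESeq2, and 0 had an unadjusted p under 0.05 (3.98% of all genes).

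Split by genotype, a comparison chosen after seeing the data, the calorimetry difference was called most often in HET/WT mice. There 7 of 10 members passed, where 5.27% of all genes were higher, with a median of 0.65 on the log2 scale: Egr2 at 1.14 ± 0.33 (edgeR, adjusted p = 0.0177), Fosb at 0.85 ± 0.22 (0.00718), Egr1 at 0.82 ± 0.19 (0.00191), Fosl2 at 0.77 ± 0.17 (0.00189), Fos at 0.73 ± 0.24 (0.0426), Egr4 at 0.56 ± 0.17 (0.0261) and Egr3 at 0.50 ± 0.14 (0.0141). HET/TG mice had 2 called (3.67% of all genes higher), Egr1 at 0.63 ± 0.18 and Egr3 at 0.49 ± 0.14. WT/TG mice had 0 called (edgeR, 2.8% of all genes; 1 by DESeq2) and 3 at an unadjusted p under 0.05 (16.4% of all genes). WT/WT mice had 0 called (edgeR, 0.982% of all genes; 0 by DESeq2) and 0 at an unadjusted p under 0.05 (12.7% of all genes), with a median of 0.08. Of the 40 differences over the 4 genotypes 9 were called, where 2.64% of those over all genes were called higher, against 3 without replicate 3, 2 without replicate 4 and 3 with the gene-length slope as a covariate.

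In HET/WT calorimetry mice Egr1 had 132, 351 and 499 CPM on 11:11 and 127, 171 and 213 CPM on 12:12 as lowest, median and highest of 8 mice each. WT/TG mice had 174, 286 and 387 CPM on 11:11, where there were 7, and 106, 196 and 296 CPM on 12:12. HET/TG mice had 162, 273 and 484 CPM on 11:11 and 109.6, 193 and 259 CPM on 12:12, and WT/WT mice had 91.0, 218 and 471 CPM on 11:11 and 135, 158 and 259 CPM on 12:12. The median was higher on 11:11 in every genotype, the groups overlapped in every genotype, and passing in 1 genotype and not in another does not show that they differ.

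Other genes of the pathway were also higher on 11:11 in calorimetry where they were called. Of the other immediate early genes 15 of 28 were called, all higher, where 10.4% of all genes were higher, among them the kinase regulator Trib1 (0.51 ± 0.09 on the log2 scale), the MAP kinase phosphatase Dusp6 (0.30 ± 0.06) and the orphan receptor Nr4a3 (0.52 ± 0.10), with a list median of 0.20. Of the late response genes 2 of 12 were higher, Ptgs2 (0.39 ± 0.09) and the prohormone convertase Pcsk1 (0.25 ± 0.06). Of the upstream factors 3 of 16 were higher by small amounts, Elk4 (0.11), Creb1 (0.09) and Mef2d (0.08), of the AP-1 and partner proteins 2 of 7, Arnt (0.24) and Batf3 (0.73), and the corepressor Nab2 was higher by 0.19.

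The genotypes by themselves were not separated by any member. HET/WT mice against WT/WT mice gave 0 of 10 called (edgeR, 0.0425% of all genes; 0 by DESeq2) and 0 at an unadjusted p under 0.05 (6.4% of all genes), with log2 differences between -0.06 and 0.32. WT/TG against WT/WT gave 0 (edgeR, 0.0159% of all genes; 0 by DESeq2) and 0 at an unadjusted p under 0.05 (4.26% of all genes), with differences between -0.14 and 0.14. HET/TG against WT/WT gave 0 (edgeR, 0.0478% of all genes; 0 by DESeq2) and 2 at an unadjusted p under 0.05 (6.07% of all genes), between 0.06 and 0.37. HET/TG against HET/WT gave 0 (edgeR, 0.0106% of all genes; 0 by DESeq2) and 1 at an unadjusted p under 0.05 (7% of all genes).

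Within a light cycle the HET/WT difference had opposite signs. On 11:11 all 10 members were higher in HET/WT than in WT/WT, with a median of 0.26, and 0 were called (edgeR, 0.0212% of all genes; 0 by DESeq2), with 5 at an unadjusted p under 0.05 (5.49% of all genes). On 12:12 all 10 were lower in HET/WT, with a median of -0.14, and 0 were called (edgeR, 0.0265% of all genes; 0 by DESeq2), with 0 at an unadjusted p under 0.05 (7.9% of all genes). The members rise and fall together from mouse to mouse, so 10 equal signs are not 10 separate observations.

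Fos on 11:11 had 14.2, 41.8 and 66.3 CPM in 16 HET/WT mice and 9.80, 24.1 and 58.2 CPM in 16 WT/WT mice, and on 12:12 it had 14.9, 26.4 and 41.3 CPM in HET/WT and 19.8, 30.6 and 46.2 CPM in WT/WT. Egr2 on 11:11 had 5.07, 17.8 and 29.6 CPM in HET/WT and 0.764, 8.61 and 25.3 CPM in WT/WT, and on 12:12 it had 2.42, 8.85 and 26.2 CPM in HET/WT and 4.58, 11.5 and 19.2 CPM in WT/WT. The groups overlapped in part in each case.

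**Figure D5:**
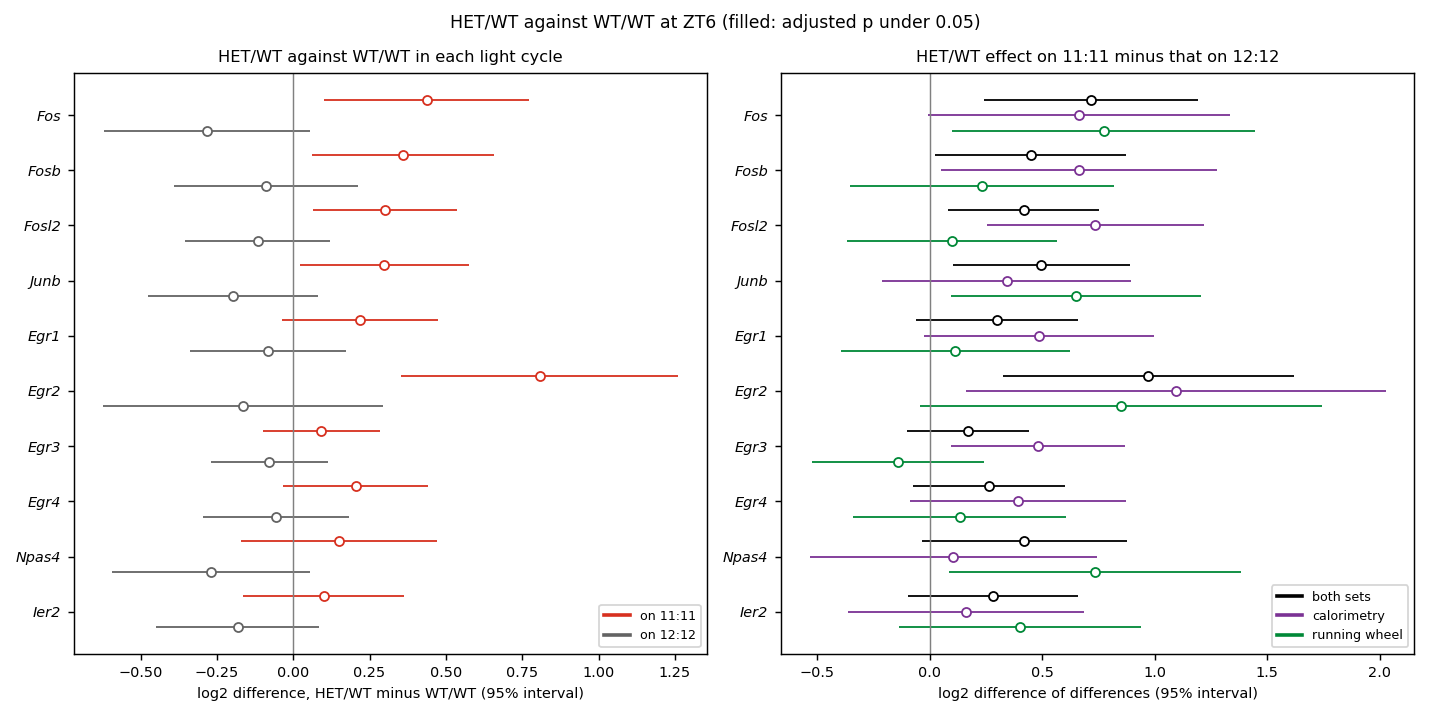
The left panel gives HET/WT minus WT/WT (log2, with its 95% interval) for each member on 11:11 and on 12:12, and the right panel gives the first minus the second over both sets, in calorimetry and with running wheels; filled points would have an adjusted p under 0.05, and there are 0. On 11:11 the points lie right of 0 with a median of 0.26, and on 12:12 left of it with a median of -0.14.

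The difference of these differences, HET/WT by light cycle, was positive in all 10 members with a median of 0.42, and 0 were called (edgeR, 0% of all genes; 0 by DESeq2), with 5 at an unadjusted p under 0.05 (7.06% of all genes). It was 0.97 ± 0.33 for Egr2 (unadjusted p = 0.00399, adjusted p = 0.490) and 0.72 ± 0.24 for Fos (unadjusted p = 0.00388, adjusted p = 0.490). In calorimetry 0 were called (edgeR, 0.632% of all genes; 1 by DESeq2), with 4 at an unadjusted p under 0.05 (12.1% of all genes), and with wheels 0 (edgeR, 0% of all genes; 0 by DESeq2), with 3 at an unadjusted p under 0.05 (2.96% of all genes). Without the filter on low counts 7 members were called over both sets, and the error of the Fos estimate was then 0.07 in place of 0.24, against 0.23 by DESeq2. The share of all genes called without the filter is not given here.

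The other genotype interactions gave 0 of 10 called as well. By edgeR 0% of all genes were called in each, and by DESeq2 0 members. At an unadjusted p under 0.05 there were 0 members in HET/TG by light cycle (10.7% of all genes), 1 in WT/TG by light cycle (3.61%), 0 in HET/WT by sex (5.58%) and 1 in HET/WT by set (4.31%).

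Calorimetry and running wheel mice differed in 7 members, where 62.2% of all genes were called, so a share of 7 in 10 is close to the background. The direction was not shared: 5 members were lower in calorimetry (32.9% of all genes), Fosl2 by 0.78 ± 0.06 on the log2 scale (edgeR, adjusted p = 4.04e-21), Fosb by 0.58 ± 0.08, Egr3 by 0.49 ± 0.05 (2.21e-15), Egr1 by 0.44 ± 0.07 and Egr2 by 0.33 ± 0.12 (0.0116), while Npas4 was higher by 0.51 ± 0.08 (8.97e-08) and Ier2 by 0.46 ± 0.07 (4.61e-09), as were 29.3% of all genes. Fos (0.12), Junb (0.13) and Egr4 (-0.09) did not pass. With the gene-length slope as a covariate 2 members were called and the Egr2 difference was 0.03.

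Fosl2 had 24.98, 41.3 and 85.9 CPM in 63 calorimetry mice and 37.3, 74.8 and 114 CPM in 63 wheel mice. Npas4 had 12.7, 22.5 and 51.5 CPM in calorimetry mice and 5.53, 17.6 and 35.9 CPM in wheel mice. Ier2 had 4.18, 10.7 and 23.3 CPM in calorimetry and 3.63, 7.85 and 14.8 CPM with wheels. All these ranges overlapped. Blood markers summed to 44.4 to 378 CPM (median 128) in calorimetry and 39.3 to 174 CPM (median 72.9) with wheels, with 5 of 7 called higher, and 8 of 9 striatal markers were called lower in calorimetry, and their part was not tested.

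The set difference by light cycle shows the interaction from the other side. On 12:12 8 members were called (53.1% of all genes), 6 of them lower in calorimetry (27.8% of all genes), and Egr1 was lower by 0.69 ± 0.09. On 11:11 7 were called (49% of all genes), 3 of them lower (24.9% of all genes), and Egr1 did not pass (-0.19 ± 0.09, adjusted p = 0.0821), while Fos was higher in calorimetry by 0.38 ± 0.12 (adjusted p = 0.00621). The late response genes as a list were lower in calorimetry in 10 of 12 and higher in 1, and the other immediate early genes were higher in 9 of 28 and lower in 12, where 32.9% of all genes were lower and 29.3% were higher.

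At ZT6, 4 members were higher in males than in females, where 27.6% of all genes were higher: Egr4 by 0.35 ± 0.06 (edgeR, adjusted p = 6.9e-07), Ier2 by 0.26 ± 0.07 (0.000549), Junb by 0.17 (0.0403) and Fosl2 by 0.14 (0.0352). Egr4 had 12.9, 34.3 and 73.7 CPM in 62 males and 11.98, 26.04 and 56.6 CPM in 64 females, and the groups overlapped. With the gene-length slope as a covariate 0 were called and without replicate 1 the count was 2, and 5 of 7 blood markers were higher in males, with a part that was not tested. Egr4 and Junb were called higher in males here and lower in males in the atlas, where WT/WT mice were averaged over 8 times. At ZT6 alone in the atlas neither was called. There the medians of Egr4 were 15.6 CPM in males and 14.4 CPM in females, and those of Junb 17.7 and 20.8 CPM.

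As in the atlas, the members varied widely and together from mouse to mouse at ZT6. The within-group SD ran from 0.28 in Egr3 to 0.72 in Egr2 on the log2 scale, against a median of 0.23 over all genes, and the members lay between the 97.4th and 99.8th percentile of the 500 genes of most similar level. Of the 45 pairs of members 43 had a positive r within groups, with a median of 0.66, and the highest was 0.86 between Fos and Junb. Npas4 with Fosl2 had the lowest, -0.08.

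Over the 126 libraries at ZT6 the genes most like the mean of the members were Nr4a1 (r = 0.91), Arc (0.83), Dusp6 (0.81), Sik1 (0.80) and Trib1 (0.79), and 4 of these 5 were also among the 5 in the atlas. Nr4a3 was nearest to Fosb, Fosl2 and Egr1 (0.88 each), Nr4a1 to Egr2 (0.87) and Fos (0.84), Homer1 to Egr3 (0.88), Dusp1 to Junb (0.83) and Ier2 (0.80), Irf2bp2 to Egr4 (0.78) and Btg2 to Npas4 (0.73). Homer1 for Egr3, Nr4a1 for Fos and Dusp1 for Junb and Ier2 were nearest in both tables.

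Levels of Fos and Egr1 at ZT6 are given beside those of the atlas without a test, since the tables were normalized separately and the experimental medians pool 4 genotypes while the atlas holds WT/WT mice alone. Fos had medians of 27.7 to 38.5 CPM in the 4 combinations of set and light cycle, against 4.69 CPM in the atlas at ZT6. Egr1 had medians of 172 to 319 CPM there, against 139 CPM in the atlas at ZT6. Not all members were above the atlas in every combination: in calorimetry on 12:12 the medians were 36.7 CPM for Fosl2 and 121 CPM for Egr3, against 40.4 and 129 CPM in the atlas at ZT6.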

How the data were processed

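Per the labels' protocols, RNA came from left prefrontal cortex, ribosomal RNA was depleted and directional NEBNext libraries were sequenced. The authors deposited 2 tables of raw counts per Ensembl gene identifier, not normalized. The build was mm10 and the tools were STAR, limma, Trim Galore and SAMtools, per the submitters' processing notes; versions, counting tool, annotation and strand setting were not given in the sources used here. Of 55487 identifiers 55227 matched GENCODE vM21, from which symbols and coordinates were taken. Every column was mapped to a sample by its name, and 0 columns of per-sample values were left unused.

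Each table was fitted by itself in R 4.3.3 with edgeR 4.0.16 (filterByExpr, TMM, glmQLFit with robust dispersion, glmQLFTest). P-values were adjusted by Benjamini and Hochberg over every gene tested, with a threshold of 0.05. The atlas model had sex with time or with a 24 h cosine. The ZT6 model had a mean per group, and contrasts weighted groups equally. CPM are counts scaled to library size after TMM, and the ± after a log2 difference is its SE. The spread is that between labelled biological replicates, 1 library per mouse. Within groups no pair of libraries held identical counts, and the lowest chi-square per gene of any such pair was 3.09. Pairs across groups were not checked.

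All 10 members are named in every comparison; other genes were named as the 5 most like the mean of the members, the 1 most like each member, and up to 3 called genes of each list by smallest p. The members, the lists and the tests were chosen with earlier results of these data known. Sex at single times, the 12 h component and the light cycle by genotype in calorimetry were added after seeing the data. Alternatives were DESeq2 1.42.0, RLE scaling, no filter, replicate number as a block, each replicate number left out, 2 libraries left out in turn (the library that goes against its label and the library richest in ribosomal RNA), and as a covariate the slope of a library's deviation in log2 CPM on log2 exon length. The fits were tested on simulated data.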

Additional observations from a re-analysis of the deposited data

Results flagged for a closer look

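The mean log2 CPM over the 10 members was checked for outlying libraries in 46 groups of 4 to 6 mice, and 2 libraries stood apart from their groups, where chance gives about 1 in 20. In the atlas, female replicate 6 at ZT0 had a mean of 4.39, below the other females at that time (4.92 to 5.12). In the running wheel set, the WT/TG female replicate 4 on 12:12 had a mean of 5.19, above the other mice of its group (4.92 to 4.96).

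The light cycle difference (11:11 minus 12:12) was larger in calorimetry than with running wheels in 4 members, by a test of the difference itself (edgeR): by 0.52 on the log2 scale in Fosb, by 0.44 in Fosl2, by 0.50 in Egr1 and by 0.32 in Egr3. The sets differed in housing and in lighting at collection, which cannot be told apart. The gene-length slope differed between the sets as well, and with it as a covariate 0 of the 4 passed, with differences of 0.42, 0.43, 0.41 and 0.24.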

How the results depend on the processing

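Counts are of members called. Values of single members were followed for those called in the main fit of selected comparisons. All 10 members were also followed for HET/WT by light cycle, where 0 were called. Of these values, 401 of 473 kept their direction and their side of the threshold, and 64 kept the direction and no longer passed. The 7 that newly passed were all of HET/WT by light cycle without the filter on low counts. The 1 that reversed was Egr2 between the sets, 0.032 on the log2 scale with the gene-length slope as a covariate. With that covariate, atlas sex gave 3, the light cycle over both sets 1, in calorimetry 4, by set 0, in each set and sex 3 of 40, set 2, set in each light cycle 5 of 20, sex at ZT6 0, and the light cycle in calorimetry by genotype 3 of 40. The share of all genes called with that covariate, or with a replicate number left out, is not given here. A loss of calls in those settings therefore cannot be read as particular to the members.

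Without the filter on low counts, the light cycle gave 8 over both sets, 2 with wheels, 9 by set, 2 by sex, 24 of 40 in each set and sex and 23 of 40 in calorimetry by genotype; sex at ZT6 gave 7. HET/WT gave 1, WT/TG 2, HET/TG 7, HET/TG against HET/WT 1, HET/WT in each light cycle 10 of 20, by light cycle 7, by light cycle in each set 12 of 20, by sex 1 and by set 7, and HET/TG by light cycle gave 2 and WT/TG by light cycle 3; the error of the Fos interaction was then 0.07 against 0.24 with the filter, and the cause was not tested. DESeq2 gave 1 for HET/WT by light cycle in each set. The share of all genes called without the filter is not given here, so the counts without it cannot be read as particular to the members.

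With each replicate number left out, the counts ranged over 3 to 7 for atlas sex, 1 to 7 of 80 for sex at each time, 1 to 2 for the 12 h component, 1 to 2 for the light cycle, 5 to 7 in calorimetry, 0 to 4 by set, 3 to 6 in each set and sex, 2 to 7 in calorimetry by genotype and 2 to 4 for sex at ZT6. The remaining leave-out counts were 9 to 10 for the rhythm, 10 for time of day, 84 to 113 for pairs of times, 6 to 8 for set, and 0 for every genotype comparison.

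Replicate numbers did not pair the mice: deviations of same-numbered mice had a mean correlation of 0.005 in the atlas and 0.008 at ZT6. With the replicate block, 9 members were called for the rhythm, 114 pairs of times, 8 for the light cycle in calorimetry, 4 by set, 7 for set and 0 for HET/WT by light cycle. RLE scaling and leaving out the library richest in ribosomal RNA moved no count by over 1.5 times. Egr2 had the widest errors of the members, and differences within its interval were not detectable here.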

Other observations

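Npas4 and Ier2 were higher in calorimetry than with running wheels in both light cycles. In 12:12 mice, where 6 members were lower in calorimetry than with wheels, Npas4 was higher by 0.30 ± 0.12 (edgeR, adjusted p = 0.0248) and Ier2 by 0.34 ± 0.10 (adjusted p = 0.00164). On 11:11 the differences were 0.71 ± 0.12 for Npas4 (adjusted p = 1.75e-07), 0.58 ± 0.10 for Ier2 (adjusted p = 2.04e-07) and 0.38 ± 0.12 for Fos (adjusted p = 0.00621). With the gene-length slope as a covariate, 5 of 20 set differences of the members in single light cycles were called in place of 15, and over both cycles 2 of 10 were called in place of 7, with an adjusted p of 0.116 for Npas4 and 0.0462 for Ier2.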
